A study of Mus musculus domesticus and Mus musculus molossinus with 8 samples.

Results

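Type I interferon-stimulated genes are the genes that cells switch on when interferon alpha or beta binds its receptor. A list of 37 such genes, named by symbol, was followed through RNA sequencing of liver and thymus, and all 37 were found among the 23284 genes of each deposited table. The samples came from 4 mice aged 8 weeks. There was 1 MSM/Ms (MSM) mouse injected into the peritoneum with 1.5 µg of MegaFasL, a multimeric Fas ligand, and 1 untreated MSM mouse. There was likewise 1 injected and 1 untreated C57BL/6 (B6) mouse. MSM is a wild-derived Japanese inbred strain and B6 is a classical laboratory strain. Liver and thymus were taken from the same animal, which gave 8 libraries of polyadenylated RNA and 1 library for each combination of strain, tissue and treatment. No value of a single group therefore has a replicate, and how long after injection the tissues were taken is not stated in the labels.

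Type I interferon binds the receptor pair Ifnar1 and Ifnar2, whose kinases Jak1 and Tyk2 phosphorylate Stat2. With Irf9, Stat2 acts in a complex that enters the nucleus and turns on the stimulated genes, which block viral entry, translation and replication, sense viral nucleic acid, and include both amplifiers (Irf7) and brakes (Usp18) of the pathway. Many of them are also transcribed at low levels without infection, through weak tonic interferon signalling, and macrophages are among the cells that respond to interferon in the liver.

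In mm10, 16 of the 37 members sit in 6 clusters whose members are at most 200000 bases apart. Ifit2, Ifit3 and Ifit1 lie together at chr19:34550694-34650009, and Oas2, Oas3, Oas1g and Oas1a at chr5:120730333-120907521. Parp14, Dtx3l and Parp9 share chr16:35832874-35972605, with Dtx3l and Parp9 overlapping on opposite strands and listed at 1 common locus in the tables, and Rsad2 and Cmpk2 share chr12:26442746-26479837. The kit named in the labels (TruSeq RNA) was given without a strand setting, so Dtx3l and Parp9 values are uncertain where the genes overlap.

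The member with the widest strain difference in thymus is Ifi27l2a, a small hydrophobic interferon-induced protein gene at chr12:103442167-103443680 on the minus strand. It was listed at 0 in all 4 MSM libraries and its whole coding sequence is short, 273 bases, so it is shown complete as annotated in GENCODE M21 (mm10, 5′ to 3′ on the coding strand).
Ifi27l2a: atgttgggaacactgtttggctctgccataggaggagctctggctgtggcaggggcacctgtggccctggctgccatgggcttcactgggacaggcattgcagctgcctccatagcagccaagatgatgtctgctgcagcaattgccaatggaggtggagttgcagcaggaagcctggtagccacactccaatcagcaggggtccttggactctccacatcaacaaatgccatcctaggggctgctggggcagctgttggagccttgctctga

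Other members have near copies, and short reads from them can be split or lost between the copies. The coding sequence of Ifit3 matched that of its neighbour Ifit3b at 1201 of 1212 bases (99.1%), and 51.2% of the 50-base windows of the Ifit3 transcript also occurred in Ifit3b, which was not a row of the tables. The first 90 coding bases of both are shown, with the base that differs in capitals.
Ifit3: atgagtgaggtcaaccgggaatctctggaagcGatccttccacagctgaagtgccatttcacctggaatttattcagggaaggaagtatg
Ifit3b: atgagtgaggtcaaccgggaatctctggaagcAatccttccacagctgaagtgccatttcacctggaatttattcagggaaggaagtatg
Oas1a and Oas1g matched at 1068 of 1104 coding bases (96.7%), and 57.6% of Oas1a windows and 54.7% of Oas1g windows occurred in each other or in Oas1b. The first 90 coding bases are the same in both, as printed here.
Oas1a: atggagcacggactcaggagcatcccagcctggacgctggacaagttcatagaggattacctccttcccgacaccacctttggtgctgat
Oas1g: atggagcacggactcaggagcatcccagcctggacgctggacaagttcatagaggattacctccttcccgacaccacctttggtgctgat
Values of Ifit3, Oas1a and Oas1g are therefore uncertain, and so to a lesser extent are those of Herc6, with 23.8% of windows shared, and Rtp4, with 13.6%.

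Levels are given in FPKM, fragments scaled by transcript length and by the number mapped in the library. Estimated from the steps between low values, 1 FPKM on 1 kb of transcript stood for 1.45 to 1.69 fragments in the liver libraries and for 2.57 to 3.15 in the thymus libraries. Between 35.7% and 45.4% of all genes were listed at 0 in a library. So were 2 to 4 of 80 ribosomal protein genes in each library of either strain. These 80 were picked by symbol, and whether each is expressed in these tissues was not examined. At this depth a listed 0 is not taken as absence. The deposited interval of every member reached down to 0 in every library, as did those of all but 0 to 2 of the 23284 genes per library, so no member's MSM interval was separate from its B6 interval. The untreated MSM thymus stood apart: hepatocyte markers summed to 2502 FPKM there, against 177 in the injected MSM thymus, 61.6 in the injected B6 thymus and 35.0 in the untreated B6 thymus. Airway secretory markers summed to 1130 FPKM there and to at most 7.01 in the other thymi, and adipose markers to 334 FPKM there and to at most 30.8 in the other thymi. Among livers, thymocyte markers summed to 33.4 FPKM in the untreated B6 liver and to 4.17 to 5.29 FPKM in the others. Strain tests are accordingly also given without each of these libraries.

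Across the 37 genes, MSM libraries held lower levels than B6 libraries in both tissues. In liver the median member was at 0.928 FPKM in the injected and 1.56 FPKM in the untreated MSM mouse, against 7.10 and 9.14 FPKM in the injected and untreated B6 mice. In thymus it was at 2.11 FPKM in the injected and 2.91 FPKM in the untreated MSM mouse, against 8.42 and 7.05 FPKM in the injected and untreated B6 mice. The number of members listed at 0 was 11 in each MSM liver, against 1 in the injected and 0 in the untreated B6 liver, and it was 6 in the injected and 2 in the untreated MSM thymus, against 0 in each B6 thymus.

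**Figure D1:**
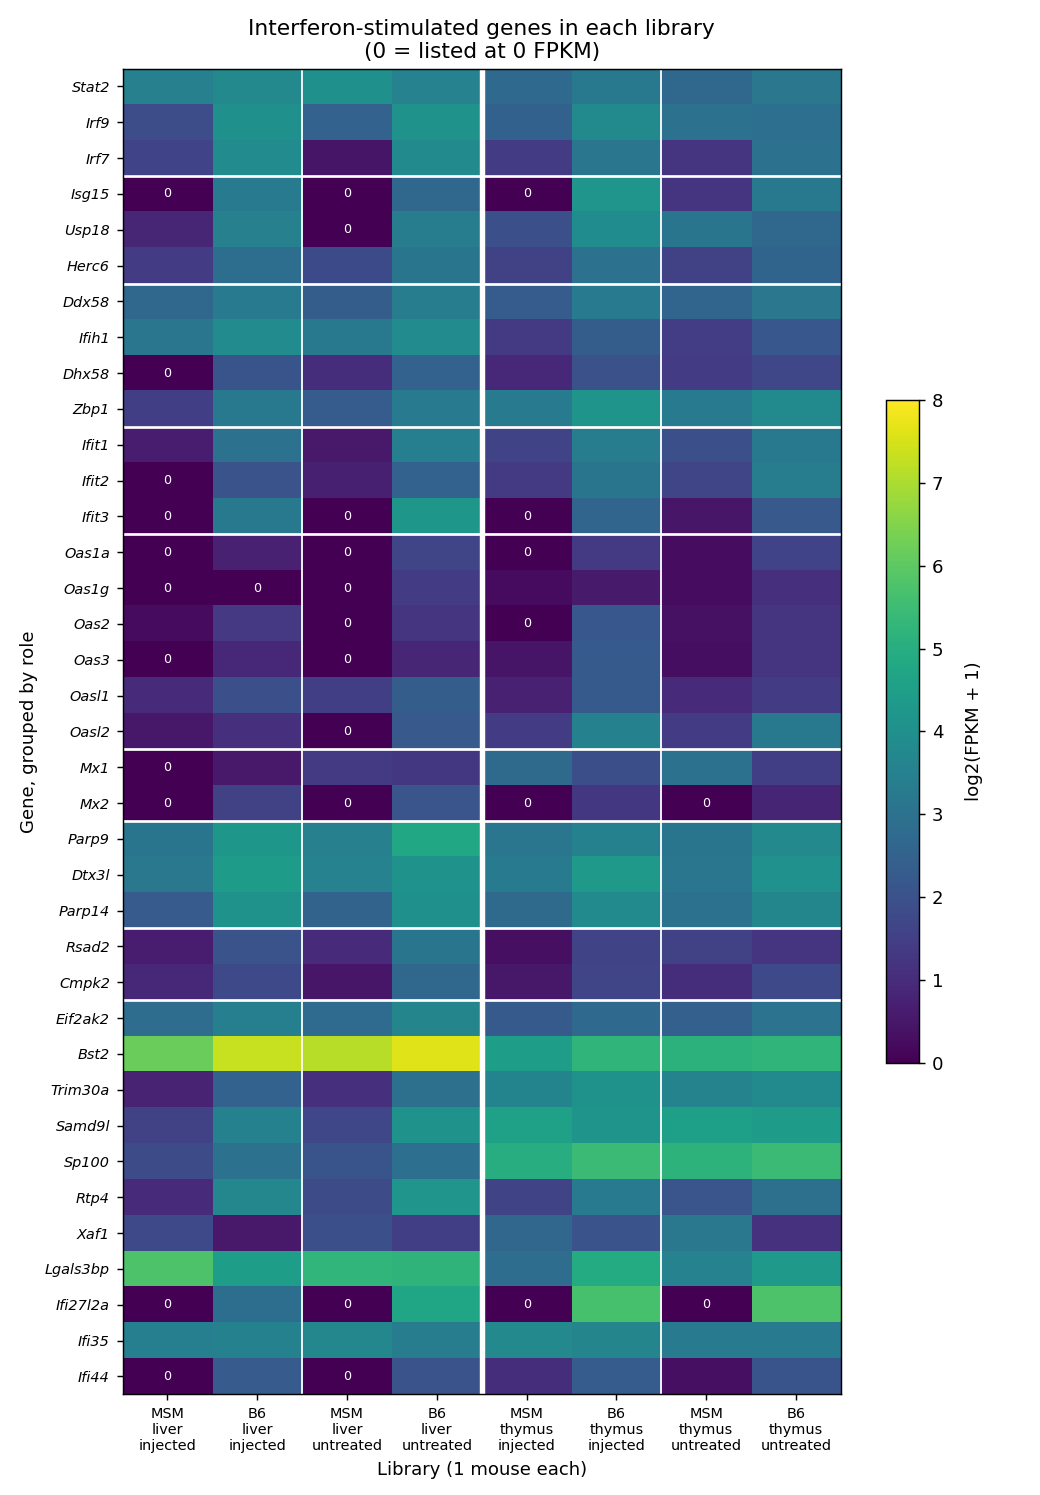
Level of each of the 37 genes (rows, grouped by role with white lines) in each of the 8 libraries (columns, 1 mouse each) as colour on a log2(FPKM + 1) scale, with a 0 written where a gene was listed at 0 FPKM. MSM columns are darker than the B6 columns beside them for most rows: 11 members were listed at 0 in each MSM liver, against 1 in the injected and 0 in the untreated B6 liver.

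Per unit of transcript length, Bst2, which tethers budding virions to the cell surface, was the most abundant member in liver, at 71.1 to 195 FPKM over the 4 livers. Lgals3bp, a secreted galectin-binding glycoprotein, followed at 20.9 to 53.7 FPKM, and its range does not overlap that of Bst2. In thymus Sp100, a nuclear body protein, was at 30.5 to 42.6 FPKM and Bst2 at 21.1 to 37.05 FPKM, ranges that overlap. Samd9l, a cytoplasmic antiviral protein, was at 16.7 to 23.1 FPKM. Ifi27l2a was the first of the 37 in B6 thymi, with a mean of 51.7 FPKM over 2 libraries, and was listed at 0 in both MSM thymi.

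Liver and thymus of the same mouse were compared by limma on log2(FPKM + 1) with mouse as a block, over genes that averaged 1 FPKM or more in either tissue. Of the 35 members that passed this filter, 7 were lower in liver (background: 32.1% of 12880 genes) and 4 were higher (28.6%) at an adjusted p under 0.05, 11 in either direction beside 60.7% of all genes, so the members' shares lay below the background. Oas1a and Oas1g did not pass. Sp100 was at 2.60 to 7.10 FPKM in livers and at 30.5 to 42.6 FPKM in thymi, a difference of -2.79 ± 0.20 log2 units (SE, 4 mice, limma adjusted p = 0.000131). Trim30a, which dampens Toll-like receptor signalling, was at 0.713 to 6.82 FPKM in livers and at 10.9 to 15.8 FPKM in thymi (-1.94 ± 0.36, adjusted p = 0.00445). No liver value of either gene reached a thymus value. Samd9l (-1.68), Mx1 (-1.496), Oasl2 (-1.43), Ifit2 (-1.06) and Zbp1 (-1.05) were also lower in liver. Bst2 (2.05 ± 0.18, adjusted p = 0.000233) and Ifih1, the RNA sensor MDA5 (1.68 ± 0.18, adjusted p = 0.000512), were higher in liver, with livers and thymi not overlapping. Stat2 (0.75) and Eif2ak2, the RNA-activated kinase PKR (0.56), were higher in liver as deposited and after median-ratio centring. Rescaling every library to a common sum (TPM) moved the median of all genes to -1.05, against -0.13 as deposited, and gave -0.23 for Stat2 and -0.39 for Eif2ak2, above that median and not called. On that scale 18 members were lower in liver (background: 53.8% of 14471 genes) and 2, Bst2 and Ifih1, were higher (background: 14.4%).

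In liver, Ifit3, Usp18 and Rtp4 were lower in MSM than in B6, and genes throughout the list had lower values in MSM without passing the test. Both MSM livers lay below both B6 livers for 31 of the 37 members (background: 22.8% of 10971 genes) and above them for 2, Xaf1 and Lgals3bp (background: 20.5%). The other 4 (Oas1g, Mx1, Stat2 and Ifi35) overlapped. The members were chosen with earlier results of these data known, so counts set against a background, here and below, are descriptions. The background covers genes that averaged 1 FPKM or more in the tissue, which 5 of the 37 did not in liver and 3 did not in thymus. In the injected and in the untreated pair alike, 20 members were at least 1 log2 unit lower in MSM (background: 4.42%) and 0 were at least 1 log2 unit higher (background: 2.66%). In single pairs, 23 members were at least 1 log2 unit lower in the injected pair (background: 10.5%) and 2 higher (background: 7.67%), and in the untreated pair 25 were lower (background: 9.98%) and 0 higher (background: 8.29%). The median difference over the 37 was -1.20 in the injected and -1.47 in the untreated pair, against 0 and 0.00 for all expressed genes. In bulk tissue, fewer cells of a type and less RNA per cell cannot be told apart. Reads of both strains were aligned to mm10, which was built from B6, and the part of MSM reads lost at divergent sequence was not tested.

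The strain test in liver was a limma fit on log2(FPKM + 1) with treatment as a block, over the 10971 genes that averaged 1 FPKM or more. It called 3 members lower (background: 0.957%) and 0 higher (background: 0.51%; 1.47% in either direction). At an unadjusted p under 0.05, 24 members were lower (background: 9.15%) and 0 higher (background: 7.02%). The filter passed 32 members, 13 of which averaged under 1 FPKM in MSM and passed through their B6 level, so these counts describe the list and are no separate support. Ifit3 (MSM mean 0 FPKM) and Usp18 (0.405 FPKM) are among the 13, so their calls are no separate support either. The filter left out Oas1a, Oas1g, Oas2, Oas3 and Mx1. The test has 1 residual degree of freedom per gene. A gene's own spread is that between the injected and the untreated pair, not among mice of 1 strain. The limma fit pulls it towards a trend over all genes tested, so each SE and p also rests on other genes. With any 1 of the injected MSM, untreated MSM, injected B6 or untreated B6 livers left out, in a fit on both tissues, 0 of all 10971 genes were called, and 16 to 18 members had an unadjusted p under 0.05 (background: at least 13.6% in either direction). Of 14 alternative settings, Ifit3 and Rtp4 passed the threshold in 7 each and Usp18 in 5.

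The Ifit proteins bind viral RNA ends and block translation. Ifit3 was listed at 0 in both MSM livers, against 8.35 FPKM in the injected and 17.6 FPKM in the untreated B6 liver, about 24.6 and 47.2 fragments by the estimated depth. The difference was -3.72 ± 0.42 (SE, n = 2 per strain, limma adjusted p = 0.0371). Ifit1 was at 0.522 FPKM in the injected and 0.474 FPKM in the untreated MSM liver, against 6.84 and 9.99 FPKM in the injected and untreated B6 livers (-2.63, adjusted p = 0.0575). Ifit2 was at 0 and 0.617 FPKM in the injected and untreated MSM livers, against 3.11 and 4.71 FPKM in the injected and untreated B6 livers (-1.93, adjusted p = 0.135). The family as a whole summed to 0.522 FPKM in the injected and 1.09 FPKM in the untreated MSM liver, against 18.3 and 32.3 FPKM in the B6 livers in the same order, and for each of its 3 genes both MSM livers lay below both B6 livers (background: 22.8%).

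Usp18 removes the ubiquitin-like protein Isg15 from its targets and shuts off the receptor. It was at 0.811 FPKM in the injected MSM liver and listed at 0 in the untreated one, against 10.3 and 9.31 FPKM in the injected and untreated B6 livers (-3.002 ± 0.39, limma adjusted p = 0.0463). Isg15 itself was listed at 0 in both MSM livers, against 9.03 and 5.497 FPKM in the injected and untreated B6 livers, about 11.51 and 6.38 fragments (-3.01, adjusted p = 0.0542). Herc6, the main mouse ligase for Isg15, was at 1.63 and 2.50 FPKM in the injected and untreated MSM livers, against 6.35 and 7.67 FPKM in the injected and untreated B6 livers. For all 3 genes of this system both MSM livers lay below both B6 livers (background: 22.8%).

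Among the transcription factors the pattern was uneven. Irf7, which amplifies interferon production, was at 2.04 FPKM in the injected and 0.370 FPKM in the untreated MSM liver, against 13.6 and 12.9 FPKM in the injected and untreated B6 livers (-2.80 ± 0.40, limma adjusted p = 0.0575). Irf9 was at 2.67 and 4.68 FPKM in the injected and untreated MSM livers, against 15.3 and 16.2 FPKM in the injected and untreated B6 livers (-1.87, adjusted p = 0.0774). Stat2, which acts with Irf9, was at 10.2 and 15.0 FPKM in the injected and untreated MSM livers, against 12.5 and 10.6 FPKM in the injected and untreated B6 livers, so its strains overlapped (0.10 ± 0.30).

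Rtp4, an interferon-induced chaperone of membrane receptors, was at 0.928 FPKM in the injected and 2.53 FPKM in the untreated MSM liver, against 12.2 and 16.9 FPKM in the injected and untreated B6 livers (-2.56 ± 0.31, limma adjusted p = 0.0428). Samd9l was at 1.98 and 2.25 FPKM in the injected and untreated MSM livers, against 10.4 and 16.3 FPKM in the injected and untreated B6 livers (-2.17 ± 0.31, adjusted p = 0.0594). Ifi27l2a was listed at 0 in both MSM livers, against 6.40 and 25.7 FPKM in the injected and untreated B6 livers (-3.81 ± 0.55, adjusted p = 0.0593). All 3 lay lower in both MSM livers (background: 22.8%), and the B6 livers differed widely in Ifi27l2a, at about 4.99 fragments in the injected and 18.3 in the untreated one.

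Antiviral enzymes and sensors were measured at lower levels or with smaller differences. The Oas and Oasl genes, which make or mimic the enzymes that activate RNase L, summed to 1.60 and 1.80 FPKM in the injected and untreated MSM livers, against 7.06 and 13.9 FPKM in the injected and untreated B6 livers. Rsad2 (viperin) and Cmpk2, the kinase gene beside it, summed to 1.38 and 1.35 FPKM in the injected and untreated MSM livers, against 5.52 and 13.1 FPKM in the injected and untreated B6 livers. The RNA sensor genes Ddx58 (RIG-I) and Ifih1 differed by -0.80 ± 0.30 and -0.65 ± 0.26, and their regulator Dhx58 by -1.78 ± 0.42, none of them called. Zbp1, a sensor of left-handed nucleic acid that starts cell death, differed by -1.38 ± 0.34 (limma adjusted p = 0.174). Parp14, Parp9 and Dtx3l, which modify interferon signalling proteins and chromatin, differed by -1.65, -1.20 and -0.85, also not called.

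Some other effectors had lower values in both MSM livers without being called. Ifi44, which slows cell growth, was listed at 0 in both MSM livers, against 3.90 and 3.15 FPKM in the injected and untreated B6 livers (-2.17 ± 0.44). Trim30a differed by -1.801, Sp100 by -0.998, Bst2 by -0.81 and Eif2ak2 by -0.69.

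Lgals3bp and Xaf1 had higher values in both MSM livers than in both B6 livers (2 of 37, background: 20.5%), and Ifi35 overlapped. Lgals3bp was at 53.7 and 37.3 FPKM in the injected and untreated MSM livers, against 20.9 and 35.6 FPKM in the injected and untreated B6 livers (0.69 ± 0.36, limma adjusted p = 0.425). Xaf1, which binds the apoptosis inhibitor XIAP, was at 2.39 and 2.89 FPKM in the injected and untreated MSM livers, against 0.464 and 1.78 FPKM in the injected and untreated B6 livers (0.85 ± 0.43, adjusted p = 0.416). Ifi35 was at 9.89 and 11.97 FPKM in the injected and untreated MSM livers, against 10.6 and 9.46 FPKM in the injected and untreated B6 livers.

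**Figure D2:**
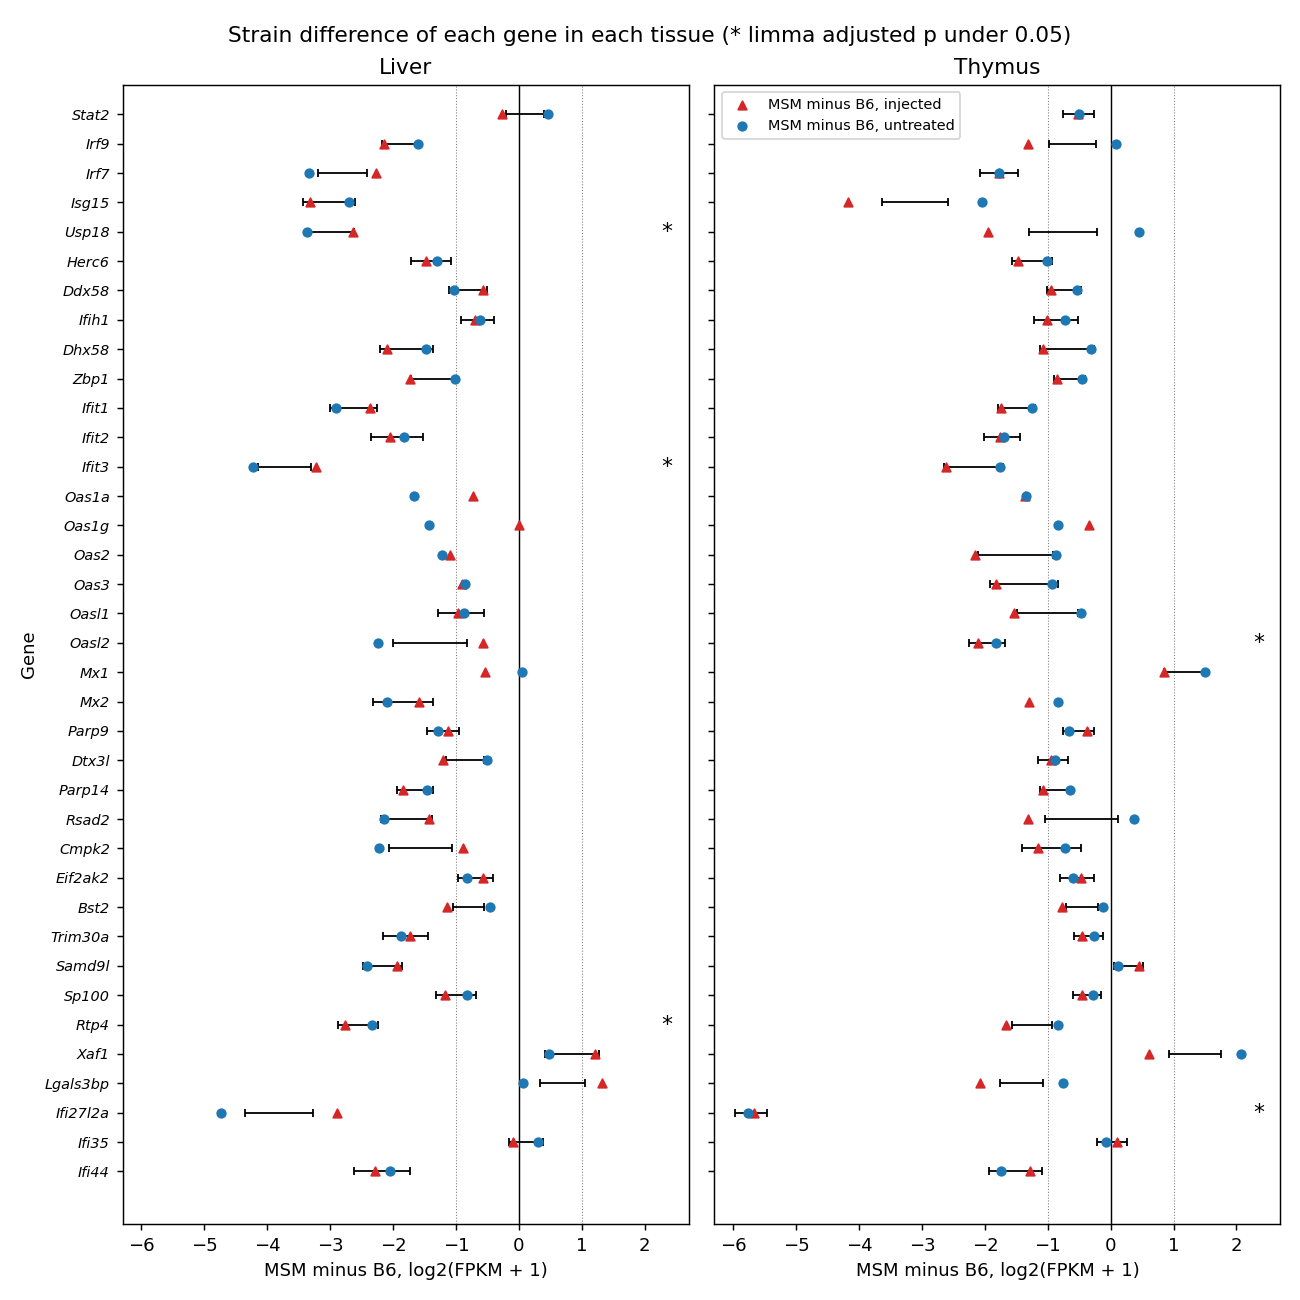
Strain difference (x axis, MSM minus B6 in log2(FPKM + 1)) of each gene (y axis) in liver and thymus, as red triangles for the injected pair and blue circles for the untreated pair; black bars span the limma estimate ± 1 SE for genes that passed the filter, stars mark a limma adjusted p under 0.05, and dotted lines mark 1 log2 unit. Most points lie left of 0, with 20 genes beyond -1 in both pairs in liver and 10 in thymus, and Xaf1 lies right of 0 in all 4 pairs.

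Kupffer cell and macrophage markers moved with these genes in liver. All 13 markers in the tables lay lower in both MSM livers than in both B6 livers (background: 22.8%). Their levels summed to 104 and 102 FPKM in the injected and untreated MSM livers, against 258 and 525 FPKM in the injected and untreated B6 livers. Of the 13, 2 were called lower by the limma test (background: 0.957%), the growth factor receptor gene Csf1r (-2.38, adjusted p = 0.0405) and lysozyme Lyz2 (-2.88, adjusted p = 0.0214). No marker of the list was at 0 in any liver, and the Kupffer cell gene Clec4f was at 11.6 and 13.4 FPKM in the injected and untreated MSM livers, against 35.9 and 60.6 FPKM in the injected and untreated B6 livers. Endothelial markers summed to 70.2 and 125 FPKM in the injected and untreated MSM livers, against 154 and 196 FPKM in the injected and untreated B6 livers. The list was mixed: of 8 markers, 5 lay lower in both MSM livers (background: 22.8%) and 1, Lyve1, lay higher (background: 20.5%). None of the 8 was called (background: 1.47%). The 6 markers listed for plasmacytoid dendritic cells, which make type I interferon, summed to 0.308 and 3.07 FPKM in the injected and untreated MSM livers, against 6.51 and 9.62 FPKM in the injected and untreated B6 livers, with 2 to 5 of them at 0 in a liver. Their defining marker Siglech was at 0 in 3 livers and at 0.253 FPKM in the injected B6 liver. Ccr9 and Ly6d, which other lymphoid cells also express, were lower in value in both MSM livers (2 of 6, background: 22.8%). The untreated B6 liver is the one in which thymocyte markers stood high. The part of these cells in the strain difference was not tested. Hepatocyte markers, at sums of 80715 to 107837 FPKM, matched the labelled tissue.

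In thymus Ifi27l2a and Oasl2 were lower in MSM, and most of the other genes had lower values in MSM without passing the test. Both MSM thymi lay below both B6 thymi for 30 of 37 members (background: 22.3% of 11610 genes) and above them for 3, Mx1, Xaf1 and Samd9l (background: 23.1%). Usp18, Irf9, Rsad2 and Ifi35 overlapped. At least 1 log2 unit lower in both pairs were 10 members (background: 2.4%), and 0 were higher by as much (background: 1.71%). In the injected pair alone, which does not hold the library that stood apart, 23 members were at least 1 log2 unit lower (background: 6.34%) and 0 higher (background: 4.08%), and the median difference was -1.29. In the untreated pair 10 were lower (background: 5.33%) and 2 higher (background: 9.36%), with a median of -0.73.

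The limma test called 2 members lower in thymus (background: 0.594%) and 0 higher (background: 0.379%; 0.973% in either direction). At an unadjusted p under 0.05, 18 were lower (background: 6.6%) and 2 higher, Mx1 and Xaf1 (background: 6.37%). The filter passed 34 members, 8 of them with an MSM mean under 1 FPKM, and left out Oas1a, Oas1g and Mx2. As in liver, these counts and the call of Ifi27l2a, which passed through its B6 level, are no separate support. Without the untreated MSM thymus, in the fit on both tissues, 0 of all 11610 genes were called, and 12 members had an unadjusted p under 0.05 (background: 9.51%). Without the untreated B6 thymus 0 genes were called and 12 members had such a p (background: 9.63%). Without the injected MSM or the injected B6 thymus 0 members and 36 or 51 genes were called, and 8 members had such a p (background: 12.5% and 12.4%).

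Ifi27l2a was listed at 0 in both MSM thymi, against 50.05 and 53.4 FPKM in the injected and untreated B6 thymi, about 72.2 and 77.8 fragments. The difference was -5.72 ± 0.26 (SE, n = 2 per strain, limma adjusted p = 0.000375). With MSM at 0, its size is set by the B6 values and the 1 FPKM added before the log. The injected and untreated pairs were at -5.67 and -5.77. Its SE draws on limma's trend over all genes tested as well as on how alike the B6 thymi were. Oasl2, an interferon-induced relative of the oligoadenylate synthetases, was at 1.64 and 1.69 FPKM in the injected and untreated MSM thymi, against 10.4 and 8.50 FPKM in the injected and untreated B6 thymi (-1.97 ± 0.29, adjusted p = 0.0447). Its MSM level was the same in both mice within 0.05 FPKM, and no MSM thymus reached a B6 thymus. Oasl2 passed the threshold in 4 of 14 alternative settings, with adjusted p between 0.00625 and 0.604, and was lost without a filter, with a filter at 5 FPKM, after centring, after TPM rescaling, without trend, in a fit on all 8 libraries and with any 1 thymus left out.

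Isg15 was listed at 0 in the injected MSM thymus and at 1.28 FPKM in the untreated one, against 17.1 and 8.38 FPKM in the injected and untreated B6 thymi (-3.11 ± 0.53, limma adjusted p = 0.0693). Ifit2 was at 1.54 and 2.17 FPKM in the injected and untreated MSM thymi, against 7.60 and 9.29 FPKM in the injected and untreated B6 thymi (-1.73 ± 0.29, adjusted p = 0.0649). Ifit1 was at 2.11 and 2.91 FPKM in the injected and untreated MSM thymi, against 9.37 and 8.33 FPKM in the injected and untreated B6 thymi (-1.498 ± 0.29, adjusted p = 0.0972). For these genes the strains were apart in thymus as in liver, without passing the threshold. Irf7 was at 1.60 and 1.36 FPKM in the injected and untreated MSM thymi, against 7.87 and 7.05 FPKM in the injected and untreated B6 thymi (-1.77 ± 0.30, adjusted p = 0.0696). Lgals3bp was at 6.20 and 10.8 FPKM in the injected and untreated MSM thymi, against 29.3 and 19.0 FPKM in the injected and untreated B6 thymi (-1.42 ± 0.35, adjusted p = 0.182), the opposite sign to its liver values.

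Mx1, a nuclear GTPase that blocks influenza virus, was at 5.80 and 6.95 FPKM in the injected and untreated MSM thymi, against 2.79 and 1.82 FPKM in the injected and untreated B6 thymi (1.17 ± 0.32, limma adjusted p = 0.218). Its neighbour Mx2, annotated as a polymorphic pseudogene in GENCODE M21, was listed at 0 in all 4 MSM libraries, against 1.47 and 0.785 FPKM in the injected and untreated B6 thymi. As background, the Mx1 allele of most classical laboratory strains, B6 included, carries a deletion of coding exons. Xaf1 was at 5.22 and 8.28 FPKM in the injected and untreated MSM thymi, against 3.09 and 1.21 FPKM in the injected and untreated B6 thymi (1.34 ± 0.42, adjusted p = 0.264). Mx1 and Xaf1 thus had higher values in both MSM thymi than in both B6 thymi, and neither passed the threshold.

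Macrophage markers in thymus lay lower in both MSM thymi for 7 of 13 (background: 22.3%) and higher for 3 (background: 23.1%). Of the 11 tested, 0 passed the limma test (background: 0.973%). The 13 markers summed to 162 and 185 FPKM in the injected and untreated MSM thymi, against 227 and 255 FPKM in the injected and untreated B6 thymi. The untreated MSM thymus is the library in which hepatocyte and airway markers stood high. Thymocyte markers summed to 1564 and 1070 FPKM in the injected and untreated MSM thymi, against 1845 and 1903 FPKM in the injected and untreated B6 thymi. Of the 6 plasmacytoid dendritic cell markers tested in thymus, 3 had estimates below 0, and the list median was 0.05. Only Ly6d, which other lymphoid cells also express, was called lower in MSM thymi (-3.80, limma adjusted p = 0.00177, background: 0.594%). The part of these lists in the strain difference was not tested.

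Liver and thymus were then set side by side gene by gene. Over the members, the strain differences of liver and thymus correlated at 0.64 (Pearson) and 0.53 (Spearman), and 31 of 37 lay below 0 in both tissues (25.6% of 9701 genes did). Over the 9701 genes that averaged 1 FPKM or more in each tissue the correlations were 0.20 and 0.19. Both tissues come from the same mice, and genes are not independent, so these are descriptions. The median strain difference of the 37 was -1.40 in liver and -0.87 in thymus.

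The difference between the tissues was tested directly on each mouse's liver minus thymus value. It called 0 of the 35 members tested (background: 0.256% lower, 0.109% higher and 0.365% of 12880 genes in either direction), and 0 under each alternative setting tried. At an unadjusted p under 0.05, the MSM minus B6 difference was more negative in liver for 7 (background: 7.51%) and more positive for 2 (background: 5.12%). Samd9l came nearest to the threshold, at -2.46 ± 0.36 (limma adjusted p = 0.087): its MSM livers lay below both B6 livers, while its thymi were at 23.1 and 21.7 FPKM in the injected and untreated MSM mice, against 16.7 and 19.9 FPKM in the injected and untreated B6 mice. Usp18 (-2.25 ± 0.78, adjusted p = 0.343) and Trim30a (-1.44 ± 0.39, adjusted p = 0.247) had the same sign. Lgals3bp (2.11 ± 0.65, adjusted p = 0.300) and Ifi27l2a (1.91 ± 0.55, adjusted p = 0.274) had the other.

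**Figure D3:**
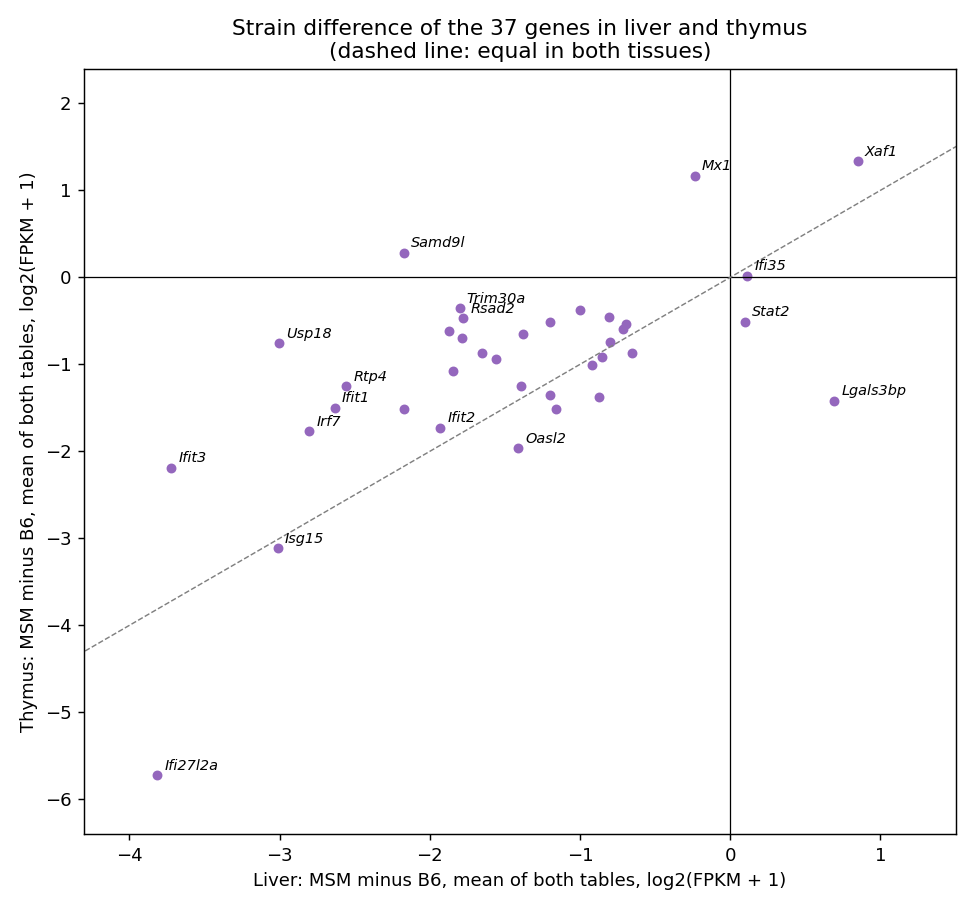
Strain difference (MSM minus B6 in log2(FPKM + 1), mean of the injected and the untreated pair) of the 37 genes in liver (x axis) and thymus (y axis), with a dashed line where both tissues are equal. The lower left area holds 31 of the 37 genes, Ifi27l2a lies farthest down, and Mx1, Samd9l, Stat2 and Lgals3bp lie where the tissues differ in sign.

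MegaFasL engages Fas, a death receptor, and treatment was not tested within a tissue because it coincides with a table that was normalized separately. Libraries of a tissue were centred by the median ratio and changes of at least 1 log2 unit were counted. No member passed that size in the same direction in both strains, in liver (background: 1.62% higher and 1.26% lower) or in thymus (background: 0.276% higher and 0.422% lower). In liver, Irf7 was higher in the injected MSM mouse by 1.12 (background: 6.65%) and Mx1 (-1.36), Dhx58 (-1.03) and Bst2 (-1.02) were lower (background: 7.1%). In B6 livers 0 members were higher in the injected mouse (background: 6.5%) and 5 were lower (background: 6.23%): Ifi27l2a (-1.91), Oas1g (-1.45), Oasl2 (-1.19), Rsad2 (-1.13) and Ifit3 (-1.05). The median change of the 37 in liver was -0.15 in MSM and -0.44 in B6, against -0.00 and -0.01 over all genes. In thymus it was -0.28 in MSM and 0.23 in B6, against -0.02 and -0.00 over all genes.

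In thymus Isg15 (-1.22), Usp18 (-1.26) and Rsad2 (-1.28) were lower in the injected MSM mouse (background: 9.56%) and 0 were higher (background: 1.87%). Usp18 (1.20) and Oas3 (1.01) were higher in the injected B6 mouse (background: 2.11%) and 0 were lower (background: 1.73%). Usp18 was at 2.86 FPKM in the injected and 7.67 FPKM in the untreated MSM thymus (-1.26), and at 13.98 FPKM in the injected and 5.36 FPKM in the untreated B6 thymus (1.20). Each value rests on 1 mouse, and the untreated MSM thymus is the library in which liver and airway markers stood high.

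**Figure D4:**
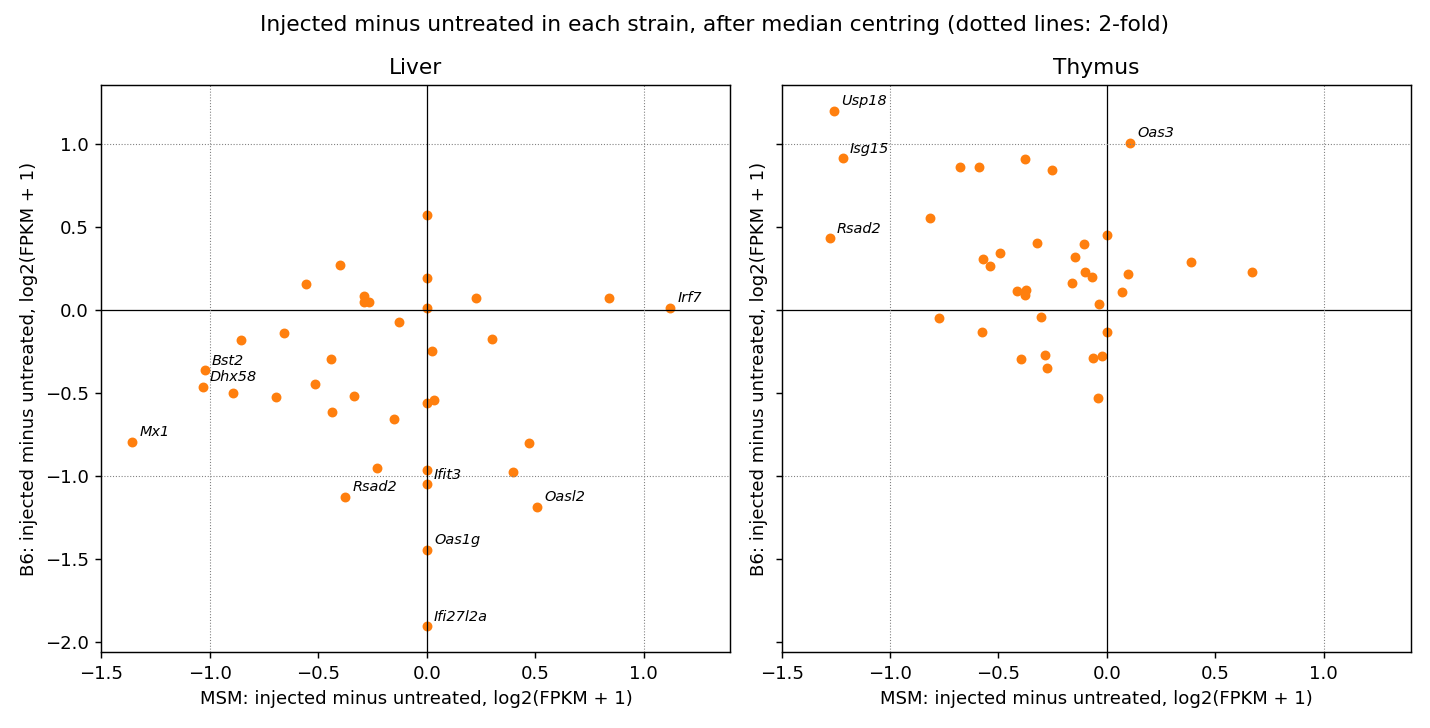
Injected minus untreated difference in log2(FPKM + 1), after median centring, for each of the 37 genes in MSM (x axis) and B6 (y axis), in liver and thymus, with dotted lines at 1 log2 unit and names for genes beyond it in either strain. No gene lies beyond the dotted lines in the same direction on both axes, and Usp18 in thymus lies at -1.26 in MSM and 1.20 in B6.

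Genes upstream of the 37 were followed through lists of the pathway. Of the 16 type I interferon ligand genes in the tables, 15 were listed at 0 in every library, and Ifnk, the keratinocyte interferon, reached at most 1.92 FPKM. The interferon gamma gene Ifng reached at most 0.553 FPKM. The receptor genes Ifnar1 and Ifnar2 were not called in either tissue: Ifnar1 was at 5.79 and 6.45 FPKM in the injected and untreated MSM livers, against 8.73 and 9.74 FPKM in the injected and untreated B6 livers (-0.52, limma adjusted p = 0.434). Of the 5 receptor genes in the tables, 0 were called in liver (background: 1.47%). In thymus 1 of them, Ifngr1, a chain of the interferon gamma receptor, was lower in MSM (background: 0.594%). It was at 17.9 and 17.0 FPKM in the injected and untreated MSM thymi, against 68.1 and 94.9 FPKM in the injected and untreated B6 thymi (-2.14 ± 0.25, adjusted p = 0.0204).

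Of 9 kinases and transcription factors of the pathway, 0 were called in either tissue (background: 1.47% in liver and 0.973% in thymus). Irf5, a factor of macrophages and B cells, was at 0.960 and 0.291 FPKM in the injected and untreated MSM livers, against 6.43 and 7.65 FPKM in the injected and untreated B6 livers (-2.33 ± 0.40, limma adjusted p = 0.0903). No inhibitor gene (5 tested in liver and 6 in thymus) and no sensor or adaptor gene (11 and 14) was called, against the same background. At such shares, a count of 0 in lists this short does not show that the upstream genes were unchanged.

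Other interferon-induced genes, outside the 37, were followed in the same way. Of 35 in the tables, 27 were tested in liver and 2 were lower in MSM (background: 0.957%), Apol9a and Apol9b, a pair of apolipoprotein L genes that resemble each other closely. Apol9b was at 0.982 FPKM in the injected MSM liver and listed at 0 in the untreated one, against 59.0 and 51.8 FPKM in the injected and untreated B6 livers (-5.32 ± 0.33, limma adjusted p = 0.00766). Apol9a was at 0.4996 and 0.908 FPKM in the injected and untreated MSM livers, against 22.3 and 20.3 FPKM in the injected and untreated B6 livers (-3.72 ± 0.32, adjusted p = 0.0187). In thymus 32 were tested and 1 was lower in MSM (background: 0.594%), Slfn8 (-3.21 ± 0.35, adjusted p = 0.0156), of a family that restricts cell growth and viruses. All 3 were under 1 FPKM in MSM in these tissues and passed the filter through their B6 level, so the calls are no separate support. Over all 35 the median difference was -0.92 in liver and -0.52 in thymus, beside -1.40 and -0.87 for the 37.

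**Figure D5:**
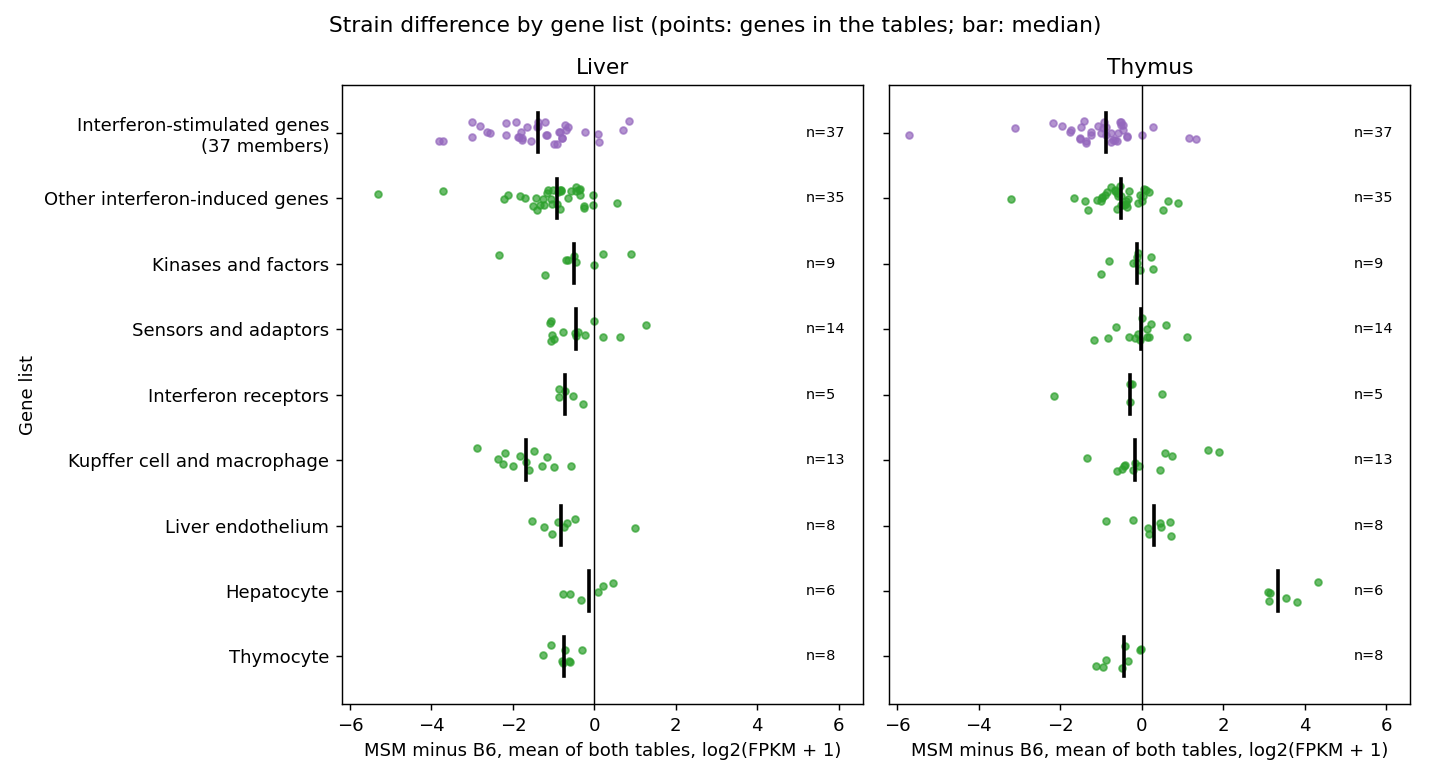
Strain difference (x axis, MSM minus B6 in log2(FPKM + 1), mean of the injected and the untreated pair) of every listed gene found in the tables (points) and the median of each list (black bars), in liver and thymus, with the number of genes at the right. The 37 interferon-stimulated genes have medians of -1.40 in liver and -0.87 in thymus, Kupffer cell and macrophage markers -1.68 in liver and -0.16 in thymus, and hepatocyte markers 3.34 in thymus.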

How the data were processed

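Polyadenylated RNA of liver and thymus from 4 mice was sequenced (TruSeq RNA kit, per the labels' protocols). The authors deposited FPKM values with interval bounds in 2 tables, one for injected and one for untreated mice, made with TopHat and Cuffdiff 2.2.1 on mm10, per the submitters' processing notes. The tables were normalized separately, and reads of both strains were aligned to a B6 genome. Depth is not in the tables; fragments per FPKM and kb were estimated from the steps of low values, of which 55.3% to 60.6% were whole within 0.1 (20% by chance), so no count test was run. Such estimates cover counting error only.

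From the FPKM values, log2(FPKM + 1) was computed, genes with a mean under 1 FPKM were left out, and limma 3.58.1 (R 4.3.3, trend, Benjamini-Hochberg adjustment over all genes tested) was fitted with treatment as a block for strain and with mouse as a block for liver minus thymus. Liver and thymus share mice by the study's design text, which is where that pairing comes from. The fits were tested on simulated data. All differences are on the log2(FPKM + 1) scale, which understates changes of low genes. Members described in full passed a strain test or were among the 6 with the largest strain difference in a tissue at a mean of at least 5 FPKM; others are given by role. Loci, lengths and sequences are from GENCODE M21. The members and lists were chosen with earlier results of these data known. Promoter sequences were not used here.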

Additional observations from a re-analysis of the deposited data

Results flagged for a closer look

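Usp18 in thymus moved in opposite directions in the 2 strains. It was lower by 1.26 log2 units in the injected than in the untreated MSM thymus (-1.26) and higher in the injected than in the untreated B6 thymus (1.20), so the MSM change minus the B6 change was -2.46. Each change sets 1 mouse against 1 mouse, the difference was not tested, and the untreated MSM thymus is the library with high hepatocyte and airway markers.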

How the results depend on the processing

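The counts of members called moved with the processing. In liver, 3 members were lower in MSM as reported. That count, with the calls over all genes in brackets (161 as reported), was 0 with 5 added before the log (122), 6 without a filter (210), 1 with a filter at 5 FPKM (193), 6 after median-ratio centring (194), 10 after TPM rescaling (336), 0 without limma's trend (37) and 9 in a fit on all 8 libraries (189). In thymus, 2 were lower as reported (113), against 7 with 0.1 added (300) and 6 with robust moderation (274). It was 1, Ifi27l2a, with Oasl2 lost, without a filter (62), with a filter at 5 FPKM (184), after centring (54), after TPM rescaling (45), without trend (44) and with all 8 libraries (44). Leaving out 1 library gave 0 to 0 in both tissues, with 0 genes called in liver and 0 to 51 in thymus; the estimate then rests on the remaining pair and the other tissue's spread. For liver minus thymus, 7 members were lower and 4 higher; TPM rescaling gave 18 and 2, and leaving out 1 mouse gave 5 to 8 lower and 2 to 3 higher (2 without the untreated MSM mouse). Without the replicate block, that is without pairing by mouse, 4 were lower and 4 higher. The strain tests pair the strains within a treatment; without that treatment term 4 members were lower in liver and 2 in thymus. Members at least 1 log2 unit lower in both pairs numbered 10 in liver and 3 in thymus with 5 added, and with 0.1 added 1 was higher in thymus and 1 was lower in injected livers of both strains. Differences that turned sign were not past the threshold, except Stat2 and Eif2ak2 between tissues, which were called as higher in liver as deposited and turned to -0.23 and -0.39, uncalled, after TPM rescaling. In liver TPM rescaling gave -0.0666 for Stat2 and -0.0506 for Ifi35, and in thymus -0.0438 for Ifi35. With 1 liver left out Stat2 ranged over -0.27 to 0.47 and Ifi35 over -0.0863 to 0.31, the lower ends without either untreated liver. With 1 thymus left out Usp18 ranged over -1.96 to 0.45, Irf9 over -1.31 to 0.0832, Rsad2 over -1.31 to 0.38 and Ifi35 over -0.0667 to 0.10. The cause of these shifts was not tested. The estimated 1.45 to 3.15 fragments per FPKM and kb limit genes under 1 FPKM.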
